A study of Mus musculus and Homo sapiens with 10 samples.

Results

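LMNA, ARHGAP29 and MIR100HG are the 3 human loci that hold the longest nuclear regions called lower for H3K4me3 after CBX8 knockdown in MDA-MB-231-Luc cells. Their members are the regions of the authors' lower and higher lists (build hg19) that overlap by at least 1 bp the windows chr1:156040000-156120000 (LMNA), chr1:94620000-94730000 (ARHGAP29) and chr11:121890000-122090000 (MIR100HG). This gave 5 regions of the 3852 in the 2 human lists, 4 lower and 1 higher. The loci were chosen for the length of their lower regions, so direction and length are given as a description with no test.

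H3K4me3 was profiled by chromatin immunoprecipitation and sequencing (ChIP-seq) of mononucleosomes released by micrococcal nuclease. MDA-MB-231 is a widely used cell line from human breast cancer, and cells of the labelled derivative MDA-MB-231-Luc carried a lentiviral short hairpin against CBX8 or a scrambled hairpin (shScr), under puromycin in both cases. The labels call the scrambled control wild type and do not name the hairpin sequence. Mouse MMTV-Myc cells with a hairpin against Cbx8 or shScr, treated in the same way, were profiled for H3K4me3, H3K27ac and H3K27me3. The MMTV promoter drives transgenes mainly in mammary epithelium, and MMTV-Myc tumours carry a Myc transgene under it. Each combination of line, hairpin and antibody had 1 library, so no difference has a replicate check. The lists hold positions only, so the size of each change, the read depth and the identity of the cells by marker genes could not be read from them.

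Trimethylation of lysine 4 on histone H3 marks the starts of active genes, usually as a short block around a CpG-rich promoter, and at some genes spreads over a broad domain into the gene body. CBX8 is a chromodomain subunit of Polycomb repressive complex PRC1, and the title of the study links it to Wdr5, which belongs to the complexes that methylate this lysine. LMNA encodes lamins A and C, intermediate filament proteins that form the lamina under the nuclear envelope and set the stiffness of the nucleus. ARHGAP29 encodes a GTPase-activating protein, one of the proteins that switch small GTPases off. MIR100HG is a long non-coding RNA gene that hosts the microRNAs miR-100, let-7a-2 and miR-125b-1.

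A broad lower region was listed at the human locus MIR100HG. The microRNAs within Mir100hg, its mouse counterpart, are shown as the known mature products of the mouse transcript. Their levels were not measured in the data used here. The sequences are the mouse ones of RefSeq (GRCm38.p6), where all 3 hairpins lie inside Mir100hg, and capitals mark the seed, bases 2 to 8.
mmu-miR-100-5p: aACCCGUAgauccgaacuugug
mmu-let-7a-5p: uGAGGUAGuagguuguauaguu
mmu-miR-125b-5p: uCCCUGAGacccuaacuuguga
The 3 seeds differ from one another. Among 1679 mature mouse microRNA names, the seed of miR-100-5p was shared with 2 others, miR-99a-5p and miR-99b-5p. The seed of let-7a-5p was shared with 10 others, 8 of them named let-7 or miR-98 with the 5p arm, together with let-7k and miR-1961. The seed of miR-125b-5p was shared with 4 others, among them miR-125a-5p and miR-351-5p.

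At ARHGAP29 a single changed region was listed. It ran from 94693751 to 94715400 on chromosome 1, a lower region of 21.65 kb, and no higher region fell in the window. This was the longest of the 3851 nuclear regions in both lists, 4.92 times the median length of the lower list (4400 bp). It covered 19.7% of the 110 kb window and lay towards its far end, starting 73.8 kb into it.

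LMNA held 2 lower regions and 0 higher ones. The longer, chr1:156082651-156099000, spanned 16.35 kb and ranked 2nd by length in the nuclear lower list. The shorter, chr1:156050551-156053900, spanned 3.35 kb and lay 28.75 kb before it. The shorter region equalled the lower quartile of the list (3350 bp), and 74.9% of the 1240 nuclear lower regions were longer, so breadth was a property of 1 of the 2 regions of LMNA. Together they placed 19.7 kb, or 24.6% of the 80 kb window, in lower regions. In the mouse gene table Lmna is flanked by Mex3a on one side and Sema4a on the other. Without an annotation of hg19 at hand, the shorter human region was not assigned to a particular promoter.

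MIR100HG was the locus with both directions. A lower region of 15.95 kb, chr11:122037151-122053100, ranked 3rd by length in the nuclear lower list. A higher region of 4.6 kb, chr11:122026651-122031250, lay on its side towards lower coordinates with a gap of 5.9 kb. The higher region was 2.63 times the median of the higher list (1750 bp), and 8.12% of the 2611 higher regions were longer. Lower regions made up 77.6% of the changed base pairs in this window, against 100% at LMNA and ARHGAP29. A lower and a higher region this close were uncommon in the lists: 24 of the 1240 nuclear lower regions, or 1.94%, had a higher region within 10 kb. Among the 51 lower regions of at least 10 kb, 3 did, the one at MIR100HG included. For comparison, the nearest higher region lay 72.2 kb from the broad ARHGAP29 region and 128 kb from the broad LMNA region. Larger gaps were found for 1062 and 954 of the 1240 nuclear lower regions, so these 2 loci were not far from a higher region either. The median gap was 369.6 kb over all nuclear lower regions and 128.25 kb over those of at least 10 kb. The closeness at MIR100HG was picked after the values were seen and has no test.

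**Figure D1:**
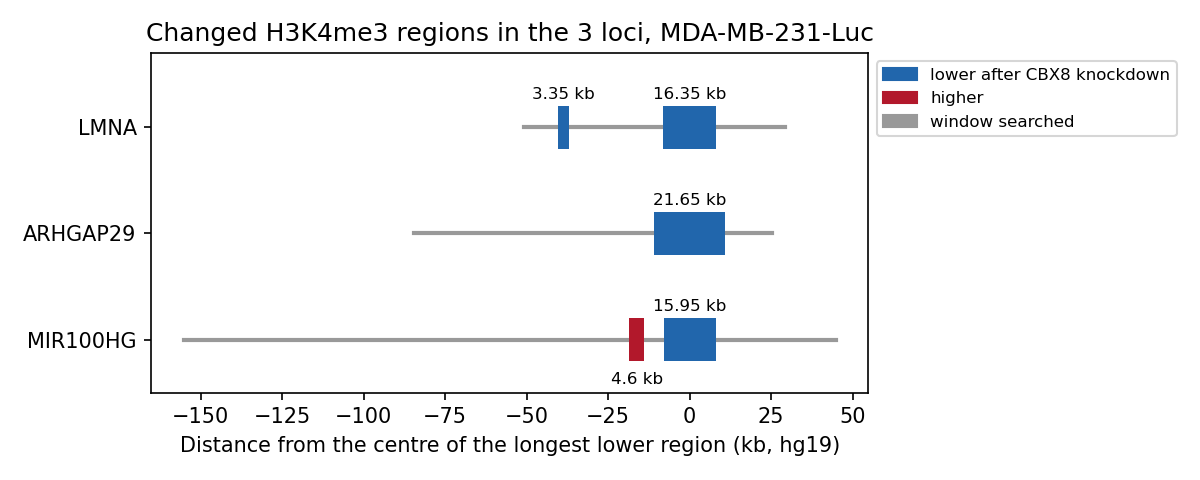
Changed H3K4me3 regions at LMNA, ARHGAP29 and MIR100HG, drawn to scale as bars against the distance in kb from the centre of the longest lower region of each locus (blue, lower after CBX8 knockdown; red, higher; grey line, the window searched). LMNA has 2 blue bars, ARHGAP29 has 1, and MIR100HG has a red bar of 4.6 kb beside its blue bar of 15.95 kb.

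Of the 5 member regions 4 were lower, where 32.2% of all listed nuclear human regions were lower (1240 of 3851). Nothing is read from that contrast, since the loci were chosen from the lower list. The 3 broad regions were the first 3 of the nuclear lower list by length, at 21.65, 16.35 and 15.95 kb. The lower list also held 1 mitochondrial region, left out of these ranks, that was longer than the LMNA and MIR100HG regions. With it counted, LMNA ranked 3rd and MIR100HG 4th, and ARHGAP29 stayed first. The ARHGAP29 region stood 5.3 kb above the LMNA region, which exceeded the MIR100HG region by 0.4 kb, a step of 8 positions on the 50 bp grid of the lists. Just outside the selection was a lower region of 14.85 kb on chromosome 10 (22603051 to 22617900), so MIR100HG and this region differed by 1.1 kb. The longest higher regions, 20.1 kb on chromosome 8 and 16.4 kb on chromosome 15, were longer than the LMNA and MIR100HG regions. Regions of at least 10 kb made up 4.11% of the lower list and 0.498% of the higher list. The 4 member lower regions held 57.3 kb, which is 0.931% of the 6.16 Mb in the nuclear lower list, from 0.323% of its regions. A region's length depends on the window and gap settings of the caller, which are not given in the sources used here.

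**Figure D2:**
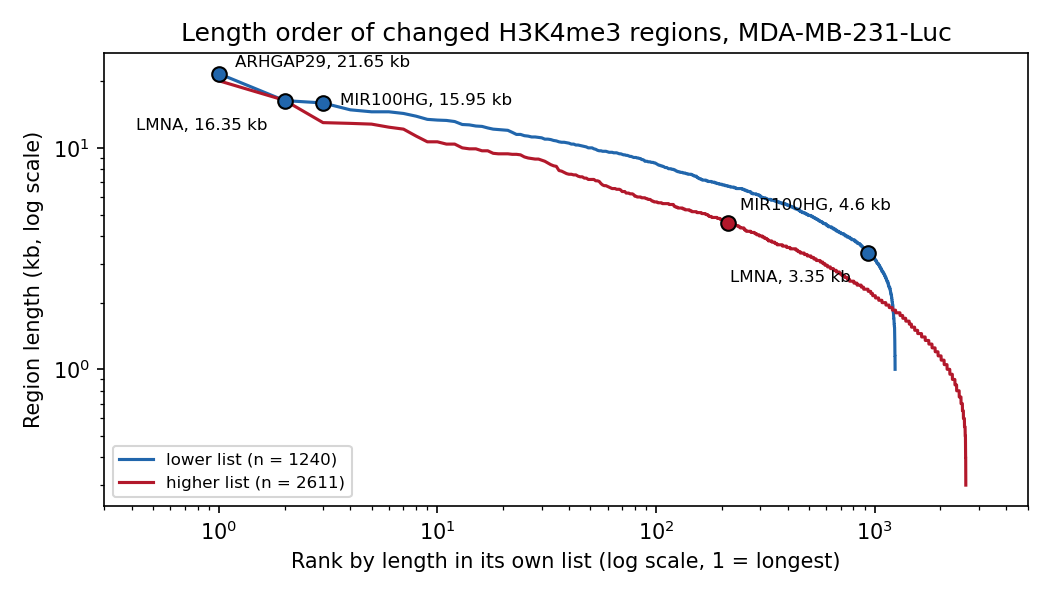
Length in kb of every nuclear H3K4me3 region of MDA-MB-231-Luc against its rank in its own list, both axes on a log scale (blue line, lower list; red line, higher list; points, the 5 member regions). The broad regions of ARHGAP29, LMNA and MIR100HG sit at ranks 1, 2 and 3 of the lower list, the shorter LMNA region at rank 930, and the higher MIR100HG region at rank 213 of the higher list.

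The surroundings of the loci, which the choice did not use, held changed regions of both directions. Within 1 Mb on either side of the ARHGAP29 window there were 3 lower and 4 higher regions. The nearest on the far side was a higher region of 9.4 kb, chr1:94787551-94796950, 72.2 kb from the broad lower region and the 19th longest of the higher list. Behind it, 167 kb from the broad region, came a lower region of 4.95 kb (94882401 to 94887350). On the near side the closest changed regions were higher ones of 1.7 kb (94270251 to 94271950) and 3.5 kb (94237801 to 94241300), followed by lower regions of 7.85 kb (94141451 to 94149300) and 7.75 kb (93809551 to 93817300). A last higher region of 3.35 kb lay 533 kb beyond the broad region. Lower and higher regions were thus interspersed along this stretch, and the broad ARHGAP29 region was flanked by a higher region on each side.

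Around the LMNA window the count was 3 lower and 3 higher regions within 1 Mb. The changed region next to LMNA towards lower coordinates was higher, 9.45 kb long (chr1:155944951-155954400) and the 18th longest of the higher list. The next one towards higher coordinates was also higher, 3.1 kb long (156645251 to 156648350) and 546 kb away. The 3 lower regions all lay before the window, at 4.95 kb (155530151 to 155535100), 3.25 kb (155223101 to 155226350) and 4.15 kb (155099451 to 155103600). After the window, the next lower region came 2.88 Mb beyond the broad LMNA region. The higher region of 9.45 kb lay 128 kb from the broad LMNA region, with the shorter lower region of LMNA between them.

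Outside the MIR100HG window fewer changed regions were listed within 1 Mb than around LMNA or ARHGAP29. There were 2, both lower and both towards higher coordinates, of 5.1 kb (chr11:122525051-122530150) and 1.15 kb (122699851 to 122701000). They lay 472 and 647 kb from the broad region. Towards lower coordinates, beyond the higher neighbour at 5.9 kb, the nearest higher region was 2.85 Mb away. The nearest lower region on that side was 3.11 Mb away. Towards higher coordinates the nearest higher region was 2.71 Mb away. The listed shares differed between the distances taken, but those within 1 Mb rest on 2 (MIR100HG), 6 (LMNA) and 7 (ARHGAP29) regions. No trend with distance is read from them. Within 5 Mb of the windows there were 5 lower and 10 higher regions around MIR100HG, 6 and 15 around LMNA, and 4 and 11 around ARHGAP29. Lower regions were thus 33.3%, 28.6% and 26.7% of those within 5 Mb, against 100%, 50% and 42.9% within 1 Mb. On chromosome 1 as a whole 35.2% of 330 changed regions were lower, and on chromosome 11 31.6% of 177, both near the 32.2% of all nuclear regions.

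**Figure D3:**
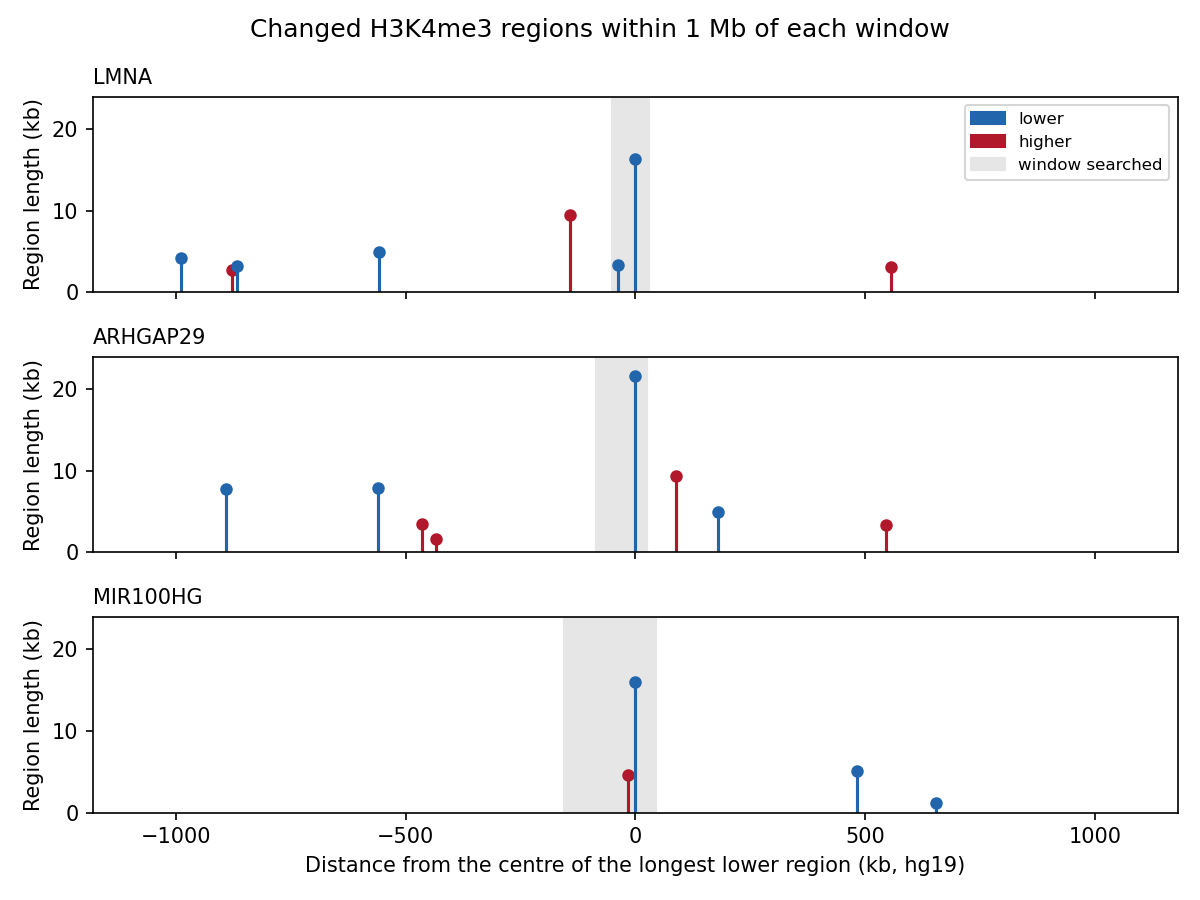
Changed H3K4me3 regions within 1 Mb of the LMNA, ARHGAP29 and MIR100HG windows, as distance in kb from the centre of the longest lower region of each locus (x) and region length in kb (y); each stem is 1 region (blue, lower; red, higher) and grey marks the window. Higher regions of 9.45 and 9.4 kb stand next to the LMNA and ARHGAP29 windows, and the MIR100HG panel holds 2 regions outside its window.

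In mouse MMTV-Myc cells the orthologous loci were searched in windows of 200 kb (Lmna, Arhgap29) and 400 kb (Mir100hg), set by hand. The windows were placed from memory of where the genes lie in mm9, after the mouse lists had been seen, and were checked against no annotation, so each mouse count and distance below rests on them. Of the 6 mouse lists, only the lower H3K4me3 list had a region in any window. This was 1 region of 1.0 kb in the Arhgap29 window, chr3:121655851-121656850. In the mouse lists 97.5% of the 719 changed H3K4me3 regions were lower, so its direction was that of nearly all listed regions. ARHGAP29 was thus the 1 locus of the 3 with a lower H3K4me3 region in both lines, as far as the hand-set window places the mouse region. The share of all mouse windows of 200 kb that hold a lower region was not computed. Nothing is therefore read from this overlap. The mouse region was short for its list, in which 90.4% of the 701 lower regions were longer and the median was 1850 bp. The human region was 21.65 times as long. The name of 1 human list gives a q-value of 0.002, and that of 1 mouse list a fold of 1.8 with a q-value of 1e-08. Lengths in the 2 lines are therefore set side by side without a test.

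No mouse region of H3K4me3, H3K27ac or H3K27me3 was listed in the Lmna window or in the Mir100hg window. The nearest lower H3K4me3 region to the Lmna window was 1.75 kb long and 0.719 Mb away (chr3:89119001-89120750). For Mir100hg it was 1.2 kb long and 0.432 Mb away (chr9:41931501-41932700). The changed regions of the acetyl mark came no closer than 5.94 Mb to Lmna, 8.63 Mb to Arhgap29 and 8.78 Mb to Mir100hg. For the Polycomb mark H3K27me3 the nearest lower region was 4.59 Mb from Mir100hg, 63.4 Mb from Lmna and 96.8 Mb from Arhgap29. The last 2 distances are to the same region. These lists were short, with 166 lower H3K27ac and 63 lower H3K27me3 regions in the genome. Of these, 6 and 3 lay on chromosome 3, so the distances are not read as a property of the loci. A locus missing from these lists is not shown to be unchanged, since the lists hold no region below the thresholds.

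Because H3K4me3 gathers at CpG-rich starts, the CpG content before the mouse starts of the 3 genes was counted in RefSeq sequence (GRCm38.p6), which lists 2 starts for each gene. The 250 bases before each Arhgap29 start are shown, since the hand-set mm9 window of this gene held a listed region. Capitals mark CpG, and both stretches of 250 bases are on the plus strand of chromosome 3. RefSeq positions are of another build than the mm9 lists, so whether the mouse region covers either start was not determined.
Arhgap29, upstream start: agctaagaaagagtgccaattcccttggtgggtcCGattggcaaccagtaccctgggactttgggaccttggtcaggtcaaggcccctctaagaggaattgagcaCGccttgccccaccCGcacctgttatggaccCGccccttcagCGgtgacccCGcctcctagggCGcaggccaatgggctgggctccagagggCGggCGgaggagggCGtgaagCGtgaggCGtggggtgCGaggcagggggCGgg
Arhgap29, downstream start: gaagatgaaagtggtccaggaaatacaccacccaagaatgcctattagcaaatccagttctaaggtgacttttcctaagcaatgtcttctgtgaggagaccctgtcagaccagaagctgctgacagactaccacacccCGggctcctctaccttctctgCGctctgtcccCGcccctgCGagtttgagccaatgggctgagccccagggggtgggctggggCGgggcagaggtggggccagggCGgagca
The upstream Arhgap29 window held 14 CpG and the downstream one 6. The Mir100hg windows held 13 and 4, and the Lmna windows 1 and 4. Over 32851 such windows the median was 6 and the interquartile range 2 to 16, so all 6 windows but the upstream Lmna window lay within that range. At least 14 CpG were found in 29.4% of all windows, and at least 1 in 92.1%. Bases after the starts were not counted, so a low count here does not show that a start is poor in CpG.

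The GC box GGGCGG, a motif bound by factors of the Sp family, was searched on both strands of the same 250 bases. It occurred 4 times before the upstream and 3 times before the downstream Arhgap29 start, once before the upstream Lmna start, and in neither Mir100hg window. Of all windows, 32.7% held it at least once, and the share holding it 3 or more times was not computed. The E-box CACGTG, which is the same on both strands and is bound by Myc among others, was in 0 of the 6 windows and in 6.02% of all windows. A match describes these letters only and does not show binding.

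**Figure D4:**
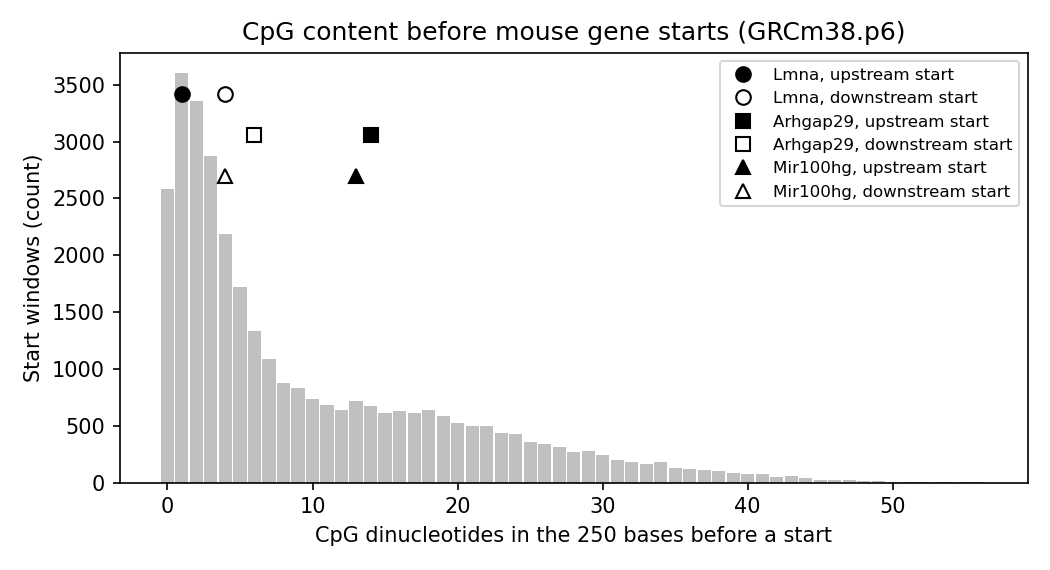
Number of CpG dinucleotides in the 250 bases before each of 32851 mouse gene starts (bars, count of windows), with the 2 starts of Lmna, Arhgap29 and Mir100hg marked above (filled, upstream start; open, downstream start; the height of the symbols has no meaning). The upstream starts of Arhgap29 and Mir100hg sit at 14 and 13, and the upstream start of Lmna at 1.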

How the data were processed

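ChIP-seq libraries of 100 bp single-end reads were made by the authors, per the labels' protocols. The deposited files are 8 lists of region positions with no score or count. The tools named in the submitters' processing notes are Bowtie 1.0.0, SICER, MACS2 2.1.0 and FastQC 0.10.0, and the builds are mm9 and hg19. Which tool called the changed regions, the use of input and any depth scaling are not given in the sources used here. Thresholds were read from the name of 1 deposited list of each line and are taken to hold for its other lists.

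Starts lay on a 50 bp grid and ends 1 bp below it, so ends were read as included, and positions are printed counted from 1. Samples were grouped by line, hairpin and antibody. Regions were assigned to windows, ranked by length and set beside their neighbours with Python 3.11.15 and pandas 2.3.3, in code tested on simulated data. The mitochondrial region, which is in the lower list, was left out of ranks and shares. No test between conditions was possible. Planned lists of further genes were not analysed, as no hg19 or mm9 annotation was at hand. Regions named are all those in the windows, their neighbours and the next in length. Members and lists were chosen with earlier results of these data known.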

Additional observations from a re-analysis of the deposited data

How the results depend on the processing

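Of 40 alternative values over 19 results, 35 stayed within 1.5 times the reported count or within its exact 95% interval. That interval is wide for shares resting on 2 to 7 regions, so even the change from 100% to 33.3% around MIR100HG is among the 35. Reading ends as not included could hardly move a value, so the count of 35 is no measure of robustness. Counts of lower and higher regions in the 3 windows were the same when regions had to lie wholly inside, when windows were widened by 50 kb and when regions closer than 5 kb were merged. Ranked among both human lists, the broad LMNA region was 4th and the MIR100HG region 5th in place of 2nd and 3rd, since 2 higher regions are longer; ARHGAP29 stayed first. The lower share around LMNA was 50% within 1 Mb and 0% within 250 kb, where 1 region was listed. Around MIR100HG no region was listed within 250 kb outside the window, so no share could be computed. Within 5 Mb the lower share was 28.6% around LMNA, 26.7% around ARHGAP29 and 33.3% around MIR100HG, against 50%, 42.9% and 100% within 1 Mb, which rest on 2 to 7 regions. Widening the mouse windows by 500 kb brought 2 lower H3K4me3 regions near Mir100hg in place of 0. By base pairs the lower share of all nuclear human regions was 51.1% in place of 32.2%. No paired analysis was possible because each condition had 1 library. Depth is unknown, and windows in mm9 were placed by hand from memory.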
